A study of Mus musculus with 15 samples.

Results

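The retinoic acid pathway was described here through 9 genes, *Crabp1*, *Crabp2*, *Aldh1a1*, *Aldh1a2*, *Rara*, *Rarb*, *Rarg*, *Cyp26a1* and *Cyp26b1*, and all 9 were among the 17454 genes of the deposited table. They were chosen by name after the levels of *Crabp2* in Tie2-Ezh2-KO and WT erythro-myeloid progenitors (EMPs) were known. Their levels in the Tie2-Ezh2-KO libraries are therefore a description, without a test. Retinoic acid is made from vitamin A in steps: dehydrogenases convert retinol to retinal, and the ALDH1A enzymes oxidize retinal to retinoic acid. CRABP proteins bind retinoic acid in the cytoplasm, the receptors RARA, RARB and RARG bind DNA with an RXR partner and switch target genes when the ligand arrives, and the CYP26 enzymes break the ligand down. In the embryo the pathway patterns the body axis, and it takes part in the formation of blood from hemogenic endothelium.

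RNA was sequenced from EMPs of mouse yolk sacs at E10.5, sorted as lineage-negative cells with KIT, CD41 and CD16/32 and without SCA1. EMPs are progenitors of erythroid and myeloid cells that arise from yolk sac endothelium. The animals were C57BL/6 or backcrossed to it, with both *Ezh2* alleles floxed, and *Ezh2* encodes the methyltransferase of Polycomb repressive complex 2. The 5 Tie2-Ezh2-KO libraries carried Tie2-Cre, which deletes in endothelium and in the cells that come from it. The 5 Vav-Ezh2-KO libraries carried Vav-iCre, which deletes in hematopoietic cells. The controls, 3 Tie2-Ezh2-WT and 2 Vav-Ezh2-WT libraries, had no Cre and are together called WT, so that neither Cre alone was controlled for. Each library came from an individual yolk sac, and the labels do not assign libraries to experiments, so an experiment and a genotype cannot be told apart.

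The depth was 10407398 to 41025074 reads on genes per library, with a median of 16091836. The medians were 15811738 over the 3 Tie2-Ezh2-WT, 15934827 over the 5 Tie2-Ezh2-KO, 17424359 over the 2 Vav-Ezh2-WT and 18418304 over the 5 Vav-Ezh2-KO libraries. Levels are in RPKM, reads scaled to the length of the gene and the depth of the library, and reads of single genes were recovered from these values. Intervals and floors given on reads cover counting error only, because the cDNA was amplified by PCR and reads are not independent molecules. A difference is the difference of mean log2(RPKM + 0.2), and a gene passed the test at a limma p under 0.05 after Benjamini-Hochberg adjustment over all genes tested.

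The sorted identity was checked against marker genes. All 8 EMP markers were above 0 in every library, with sums of 614 to 787 RPKM and *Gata1* as the most abundant in the mean of the 15 libraries (as for each list below), and limma called none in any of the 3 comparisons, with 1 or 2 at an unadjusted p under 0.05 in each and 0 by limma-voom. The 2 libraries Tie2-Ezh2-WT replicate 4 and Tie2-Ezh2-KO replicate 7 stood apart by the markers of visceral endoderm, the outer layer of the yolk sac. The 9 markers summed to 223 RPKM in the former and 297 RPKM in the latter, against 12.1 to 37.4 RPKM in the other 13 libraries, with *Trf* as the most abundant gene over all libraries. Among them were genes of vitamin A transport. *Rbp4*, which encodes the retinol carrier of plasma, was at 32.5 and 54.7 RPKM in these 2 libraries and at most at 3.88 RPKM in the others. *Ttr*, whose protein travels with it, was at 13.5 and 22.6 RPKM and at most at 0.616 RPKM in the others.

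Markers of other cells moved with the genotype. *Amn*, a visceral endoderm gene, rose in Tie2-Ezh2-KO from 0.184 ± 0.348 RPKM to 2.43 ± 1.28 RPKM (SD, n = 5 each; difference 3.01, SE 0.45, adjusted p = 0.00155; higher in 5 of 5 libraries), and limma called none of the other 7 tested genes of that list, with 0 of them at an unadjusted p under 0.05 and 0 by limma-voom. The 6 primitive erythroid markers summed to 200 to 865 RPKM in Tie2-Ezh2-KO libraries, 72.0 to 151 RPKM in WT and 65.7 to 159 RPKM in Vav-Ezh2-KO. *Hba-x*, an embryonic globin gene, rose in Tie2-Ezh2-KO from 1.36 ± 0.858 RPKM to 166 ± 146 RPKM (SD, n = 5 each; difference 6.33, SE 0.62, adjusted p = 8.88e-05). With limma-voom its adjusted p was 0.0785, in a range of 3.05e-05 to 0.0785 over the alternatives. *Hbb-bh1*, the most abundant gene of that list, rose from 114 ± 32.1 RPKM to 274 ± 142 RPKM (SD, n = 5 each; difference 1.18, SE 0.29, adjusted p = 0.0441), a call that held in 7 of 21 alternatives and in 2 of the 10 that left out a library, Tie2-Ezh2-KO replicate 13 or 17. *Amn*, *Hba-x* and *Hbb-bh1* are named here after their values were seen.

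The 7 endothelial markers analysed summed to 26.7 to 56.2 RPKM, with *Pecam1* as the most abundant and *Cdh5* between 0 and 0.349 RPKM. *Pecam1* was below *Esam* in 4 of 5 Tie2-Ezh2-KO libraries, and the median difference of the list from WT was 0.13 there. Mesenchyme and mesothelium were at 0.832 to 2.92 RPKM summed over 9 genes, with *Pdgfrb* as the most abundant. Macrophage markers were at 1.41 to 11.5 RPKM over 6 genes, with *Csf1r* as the most abundant and *C1qa* at 0 in every library. None of these 3 lists had a gene past the limma threshold in Tie2-Ezh2-KO against WT, with 2, 1 and 1 genes at an unadjusted p under 0.05 and 0 by limma-voom.

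*Ezh2* itself was measured as the whole gene, which does not separate the deleted exon, so the genotype labels are checked little by it. Its level was 36.9, 39.5, 30.1, 41.9 and 41.5 RPKM in the WT libraries and 33.8, 42.5, 37.8, 38.1 and 34.0 RPKM in Vav-Ezh2-KO. The Tie2-Ezh2-KO libraries had 27.8, 26.2, 24.8, 29.5 and 26.5 RPKM. Every Tie2-Ezh2-KO library was below every other library. The difference from WT was -0.48 (SE 0.12, limma adjusted p = 0.0418, range over the alternatives 0.0134 to 0.344) in Tie2-Ezh2-KO, and 9 of 21 alternatives kept the call. Of the 10 that left out a library, 3 kept it, those without Tie2-Ezh2-WT replicate 12, Tie2-Ezh2-KO replicate 9 or Tie2-Ezh2-KO replicate 13. In Vav-Ezh2-KO it was -0.02 (SE 0.11, limma adjusted p = 0.969), and its sign flipped with quantile normalization, with a common median, and without Vav-Ezh2-WT replicate 4, Vav-Ezh2-WT replicate 6, Vav-Ezh2-KO replicate 1 or Vav-Ezh2-KO replicate 28.

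The genes of the binding proteins had the highest mean levels of the 9 in Tie2-Ezh2-KO and few or no reads elsewhere. *Crabp2* lies on chromosome 3 of GRCm38, chr3:87948693-87953372, and *Crabp1* on chromosome 9, chr9:54764748-54773110. Replicates 7, 9, 11, 13 and 17 of Tie2-Ezh2-KO had *Crabp2* levels of 3.42, 1.02, 0.750, 2.07 and 3.80 RPKM, from 10 to 55 reads per library. The gene was at 0 in all 3 Tie2-Ezh2-WT libraries, at 0.373 and 0.0557 RPKM in the Vav-Ezh2-WT libraries, and at 0, 0.302, 0, 0 and 0 RPKM in the Vav-Ezh2-KO libraries. All 5 Tie2-Ezh2-KO libraries were above all 10 others, and WT and Vav-Ezh2-KO overlapped at 0 to 5 reads. The mean was 2.21 ± 1.37 RPKM in Tie2-Ezh2-KO, 0.0858 ± 0.162 RPKM in WT and 0.0603 ± 0.135 RPKM in Vav-Ezh2-KO (SD, n = 5 each). Fewer cells with *Crabp2* RNA and less of it per cell cannot be told apart in RNA from many cells, for this and for every other gene here. Summed over libraries, 178 reads in Tie2-Ezh2-KO stood against 6 in WT and 5 in Vav-Ezh2-KO. The pooled level was 34.1 times that of WT (exact 95% interval 15.3 to 94.0) and 41.5 times that of Vav-Ezh2-KO (17.5 to 129). Of the 6 reads in WT, 5 were in Vav-Ezh2-WT replicate 4, and without it the ratio to WT was 174 (30.9 to 6930) on a single read. Without Tie2-Ezh2-WT replicate 12 it was 20.4 (9.17 to 56.2). All 5 reads of Vav-Ezh2-KO were in replicate 9, and without it the mean in Tie2-Ezh2-KO was at least 12.3-fold higher, taking 3 reads per library as the floor. The difference of *Crabp2* from WT was 3.00 (SE 0.44).

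*Crabp1* followed the same division of libraries. In the same order of Tie2-Ezh2-KO replicates, 7 to 17, its level was 2.12, 0.618, 1.55, 1.26 and 3.02 RPKM, from 7 to 36 reads. It was at 0 in all 5 WT libraries and in 4 of 5 Vav-Ezh2-KO libraries, and at 0.329 RPKM in Vav-Ezh2-KO replicate 28, from 7 reads. All 5 Tie2-Ezh2-KO libraries were above the 10 others, and WT and Vav-Ezh2-KO overlapped at 0. The mean of 1.71 ± 0.909 RPKM in Tie2-Ezh2-KO (SD, n = 5) was at least 7.03-fold higher than WT, taking 3 reads per library, 0.244 RPKM, as the floor of the WT mean. The pooled level was 18.3 times that of Vav-Ezh2-KO (exact 95% interval 8.60 to 46.7), and without replicate 28 the mean was at least 7.17-fold higher, against the same kind of floor. The difference of *Crabp1* was 3.11 (SE 0.34) from WT and 2.83 (SE 0.40) from Vav-Ezh2-KO, where that of *Crabp2* was 3.11 (SE 0.43).

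The visceral endoderm markers were also high in Tie2-Ezh2-WT replicate 4, where *Crabp1* and *Crabp2* had no read. Without both libraries, which was tried after the data had been seen, the difference from WT was 3.01 for *Crabp1* and 2.70 for *Crabp2*, against 3.11 and 3.00 with them. The primitive erythroid markers and *Amn* were high in the same 5 libraries as *Crabp1* and *Crabp2*. The part of these markers in the result was not tested.

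The enzymes that make retinoic acid were scarce. *Aldh1a1*, at chr19:20492583-20643463, had no read in any of the 15 libraries. *Aldh1a2*, at chr9:71215789-71296243, encodes the main retinal dehydrogenase of the early embryo. Replicates 7, 9, 11, 13 and 17 of Tie2-Ezh2-KO had 0.887, 0.116, 0.268, 0.329 and 0.137 RPKM, from 4 to 32 reads. It was at 0 in all 5 WT libraries and in 4 of 5 Vav-Ezh2-KO libraries, and at 0.0768 RPKM, 2 reads, in Vav-Ezh2-KO replicate 26. Tie2-Ezh2-KO did not overlap with the other groups, which overlapped at 0, and the highest value came from replicate 7, which was also high in visceral endoderm markers. The mean of 0.348 ± 0.315 RPKM (SD, n = 5) was at least 4.36-fold higher than WT, against a floor of 3 reads per library, 0.0798 RPKM, and at least 2.67-fold without replicate 7. The pooled level was 40.8 times that of Vav-Ezh2-KO, with an exact 95% interval of 10.9 to 344 that rests on the 2 reads of replicate 26, and without Tie2-Ezh2-KO replicate 7 it was 27.0 (6.98 to 231). Without Vav-Ezh2-KO replicate 26 the mean was at least 5.71-fold higher, against a floor of 3 reads per library. The difference of *Aldh1a2* was 1.30 (SE 0.32) from WT, 1.01 without Tie2-Ezh2-KO replicate 7, and 1.20 (SE 0.33) from Vav-Ezh2-KO.

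All 3 receptor genes were read in every WT library. *Rarb*, at chr14:16430839-17082331, is a textbook target of its own ligand. Its level in Tie2-Ezh2-KO was 0.747, 0.660, 0.657, 1.57 and 0.739 RPKM, replicates in the same order. It was at 0.312, 0.342, 0.255, 0.145 and 0.434 RPKM in WT and at 0, 0.294, 0, 0 and 0.427 RPKM in Vav-Ezh2-KO. All 5 Tie2-Ezh2-KO libraries were above all 10 others, replicate 13 stood above the rest of its group, and WT and Vav-Ezh2-KO overlapped. The mean was 0.875 ± 0.392 RPKM in Tie2-Ezh2-KO, 0.298 ± 0.107 RPKM in WT and 0.144 ± 0.203 RPKM in Vav-Ezh2-KO (SD, n = 5 each). Tie2-Ezh2-KO was thus 2.94-fold above WT and 6.07-fold above Vav-Ezh2-KO, and 2.36 to 3.32-fold and 4.86 to 11.9-fold without each library in turn. The difference of *Rarb* was 1.08 (SE 0.30) from WT and 1.77 (SE 0.38) from Vav-Ezh2-KO.

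*Rara*, at chr11:98927800-98974942, and *Rarg*, at chr15:102234938-102257522, encode the other receptors, and their groups overlapped. *Rara* had means of 0.606 ± 0.149 RPKM in Tie2-Ezh2-KO, 0.365 ± 0.209 RPKM in WT and 0.418 ± 0.117 RPKM in Vav-Ezh2-KO (SD, n = 5 each). *Rarg* had means of 0.487 ± 0.221, 0.218 ± 0.190 and 0.343 ± 0.111 RPKM in the same order (SD, n = 5 each). For both genes the mean was lowest in the pooled WT and highest in Tie2-Ezh2-KO, and the libraries of all 3 overlapped. The WT groups differed: *Rara* had a mean of 0.462 RPKM in Tie2-Ezh2-WT, above Vav-Ezh2-KO, and 0.219 RPKM in Vav-Ezh2-WT. *Rarg* had 0.116 RPKM in Tie2-Ezh2-WT and 0.370 RPKM in Vav-Ezh2-WT, the latter above Vav-Ezh2-KO. The difference from WT in Tie2-Ezh2-KO was 0.59 (SE 0.33) for *Rara* and 0.80 (SE 0.36) for *Rarg*.

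The enzymes that break retinoic acid down gave few reads. *Cyp26a1*, at chr19:37697738-37701536, is induced by retinoic acid in many tissues. It was read in Tie2-Ezh2-WT replicates 10 and 12, at 0.426 and 0.137 RPKM from 12 and 10 reads, and at 0 in all 13 other libraries. The WT mean was 0.113 ± 0.185 RPKM (SD, n = 5). Summed over libraries, WT had 22 reads, a pooled level of 0.121 RPKM (exact 95% interval 0.0758 to 0.183). Both knockouts had 0, with upper limits of 0.0233 RPKM in Tie2-Ezh2-KO and 0.0200 RPKM in Vav-Ezh2-KO. These limits hold counting error only, and the 3 WT libraries at 0 overlapped with the knockouts. *Cyp26b1*, at chr6:84571414-84593908, was read in Tie2-Ezh2-KO replicates 7 and 17, at 0.0518 and 0.0256 RPKM from 4 and 2 reads, and at 0 in the other 13 libraries. Both of its group levels were under the floor, and no fold is given.

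**Figure D1:**
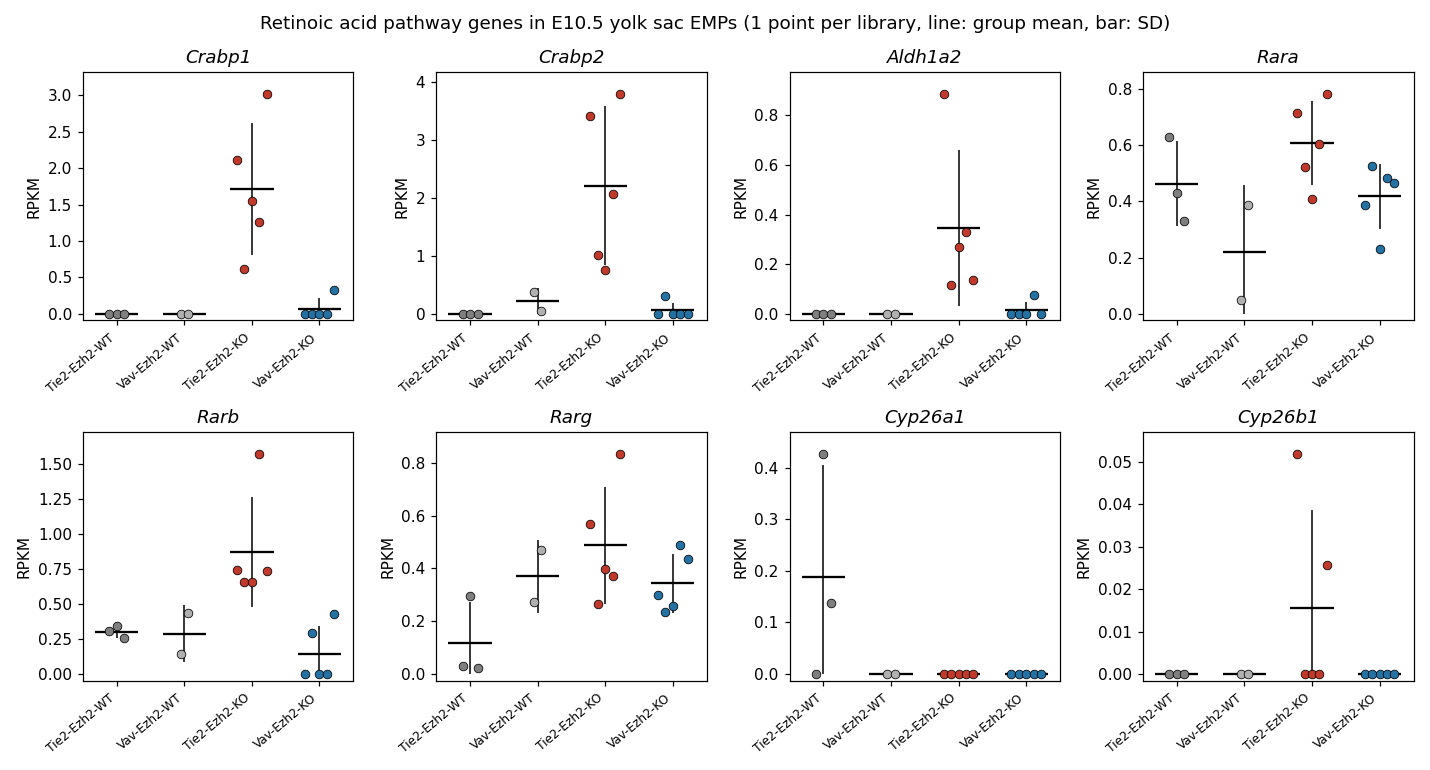
Levels in RPKM (vertical axis, own scale per gene) of the 8 pathway genes with reads, with 1 point per library for the WT groups of Tie2-Ezh2 (3 libraries) and Vav-Ezh2 (2 libraries) and for both knockouts (5 libraries each); horizontal lines are group means and vertical bars are SD, drawn no lower than 0. For *Crabp1*, *Crabp2*, *Aldh1a2* and *Rarb* all 5 Tie2-Ezh2-KO libraries sit above all others, and *Rara* and *Rarg* overlap between groups.

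Within Tie2-Ezh2-KO the order of mean levels per length was *Crabp2*, *Crabp1*, *Rarb*, *Rara*, *Rarg*, *Aldh1a2*, *Cyp26b1*, with *Aldh1a1* and *Cyp26a1* at 0. Neighbours from *Crabp2* to *Aldh1a2* in that order differed by less than the larger of their SDs. In WT the order was *Rara*, *Rarb*, *Rarg*, *Cyp26a1*, *Crabp2*, and the other 4 genes were at 0. The receptors thus led in the mean of the WT libraries, and the binding proteins led in Tie2-Ezh2-KO. The WT groups differed in order. In Tie2-Ezh2-WT *Cyp26a1* (0.188 RPKM) stood above *Rarg* (0.116 RPKM). In Vav-Ezh2-WT *Rarg* led (0.370 RPKM), and *Rara* (0.219 RPKM) was close to *Crabp2* (0.214 RPKM).

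In Tie2-Ezh2-KO against WT, 386 of 14154 genes (2.73%) passed the test, 343 higher and 43 lower, and 466 (3.29%) had the lowest of 5 Tie2-Ezh2-KO values above the highest of 5 WT values. Of the 9 pathway genes, 7 were above 0.2 RPKM in at least 1 of these libraries, 3 passed the threshold (*Crabp1*, *Crabp2* and *Aldh1a2*), and 4 had groups that did not overlap in that direction (these and *Rarb*). The pathway genes were selected on this contrast, and nothing is read from these counts. Over the alternatives 2 to 4 of them passed, and the call of *Aldh1a2* held in 8 of 21, and in 2 of the 10 that left out a library. The number of genes past the threshold was 217 without both libraries high in visceral endoderm markers.

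The Vav-Ezh2-KO libraries did not serve to choose the genes, and they ask whether deletion of *Ezh2* in hematopoietic cells changes the pathway. In Vav-Ezh2-KO against WT, which shares its WT libraries with the contrast above, 1 of 13646 genes (0.00733%) passed the test. It was *Sva*, named here after its values were seen, and limma-voom gave 0. Without Tie2-Ezh2-WT replicate 10, Tie2-Ezh2-WT replicate 12 or Vav-Ezh2-WT replicate 4, 2 genes passed. Of the 6 pathway genes tested, limma called 0, with 0 at an unadjusted p under 0.05 and 0 by limma-voom. *Crabp2* differed by -0.11 (95% confidence interval -0.89 to 0.67, limma adjusted p = 0.958) and by 0.18 without Vav-Ezh2-WT replicate 4, the WT library with 5 of the 6 reads. *Crabp1* differed by 0.28, with reads in a single Vav-Ezh2-KO library and none in WT, so that the difference could not be negative and nothing is read from its test.

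The receptors were not past the threshold in Vav-Ezh2-KO either. *Rarb* differed from WT by -0.70 (95% confidence interval -1.48 to 0.09, limma adjusted p = 0.663), with 3 of 5 Vav-Ezh2-KO libraries at 0. *Rara* differed by 0.21 (-0.49 to 0.90, adjusted p = 0.894), and by -0.06 without Vav-Ezh2-WT replicate 4. *Rarg* differed by 0.49 (-0.23 to 1.21, adjusted p = 0.733), and by -0.07 against the Vav-Ezh2-WT libraries only. These 3 intervals leave room for differences of either sign, though that of *Rarb* reaches little above 0. *Cyp26a1* was at 0 in all 5 Vav-Ezh2-KO libraries and met the filter through a WT library, so its difference of -0.48 could not be positive, and nothing is read from its test. *Aldh1a1*, *Aldh1a2* and *Cyp26b1* were at or below 0.2 RPKM in all 10 libraries and were not tested.

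The knockouts were also set against each other, which asks whether deletion from the endothelial stage differs from deletion in hematopoietic cells. In Tie2-Ezh2-KO against Vav-Ezh2-KO, 495 of 14120 genes (3.51%) passed the test, 372 higher and 123 lower. That number was 969 without Tie2-Ezh2-KO replicate 9 and 320 without Vav-Ezh2-KO replicate 28. Of the 6 pathway genes tested 3 passed, *Crabp1*, *Crabp2* and *Rarb*, or 2 to 4 over the alternatives, and nothing is read from this count either, since the Tie2-Ezh2-KO libraries chose the genes. The difference was 0.39 (SE 0.27) for *Rara* and 0.31 (SE 0.29) for *Rarg*. Of the markers, *Amn* (3.42, SE 0.33, limma adjusted p = 0.000149), *Hba-x* (5.64, SE 0.72, adjusted p = 0.000422) and *Hbb-bh1* (1.29, SE 0.31, adjusted p = 0.0302) were higher in Tie2-Ezh2-KO, a call that held in 12 of 19 alternatives for *Hbb-bh1*. The median difference was 1.71 over the 8 visceral endoderm markers tested, 0.86 over the 6 primitive erythroid and 0.55 over the 7 endothelial markers, of which limma called 0, with 4 at an unadjusted p under 0.05 and 0 by limma-voom. Their part in the result was not tested.

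The rest of the pathway was taken from a list of 53 genes in 7 roles, of which 49 were analysed here and *Stra6*, *Cyp26c1*, *Hoxb1* and *Rarres2* were not. A further retinoid gene, not counted in these 53, was left out after the values had been seen. The counts, medians and plot are without it, so the calls below hold for the other genes only. In Tie2-Ezh2-KO against WT, limma called 0 of 35 list genes tested, with 6 at an unadjusted p under 0.05 and 1 called by limma-voom. The differences were above 0 for 19 genes and below 0 for 16, with a median of 0.03, or 0.00 with the 3 genes at 0 in either group set to their bound, against 0.01 over all genes tested. In Vav-Ezh2-KO against WT, limma called 0 of 32, with 1 at an unadjusted p under 0.05, *Fabp5*, and 0 by limma-voom. There 12 differences were above 0 and 20 below, with a median of -0.09, unchanged with 2 genes at their bound, against -0.02 over all genes. In Tie2-Ezh2-KO against Vav-Ezh2-KO, 1 of 36 was higher, *Tgm2*, and 0 lower, with 3 at an unadjusted p under 0.05 and 0 called by limma-voom. There 20 differences were above 0 and 16 below, with a median of 0.04, unchanged with 3 genes at their bound, against 0.04 over all genes. Over all genes tested, 11%, 7.93% and 16.6% were at an unadjusted p under 0.05 in the 3 comparisons, in that order.

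By role, in Tie2-Ezh2-KO against WT, the 4 carriers tested had a median difference of 0.46 and the 3 RXR partners 0.54. The 10 enzymes of retinol and retinal had a median of -0.08, the 9 coregulators -0.11 and the 8 responsive genes 0.27. The single other retinal dehydrogenase tested, *Aldh1a3*, was near 0, with a mean of 0.0557 RPKM over the 15 libraries. None of these roles had a gene past the limma threshold in that comparison, with 2, 1, 1, 0, 2 and 0 genes at an unadjusted p under 0.05 among carriers, partners, enzymes, coregulators, responsive genes and other dehydrogenases. Of the carriers, *Rbp4* (0.79, SE 1.11) and *Ttr* (0.51, SE 1.26) are also visceral endoderm markers. In Vav-Ezh2-KO against WT the medians were -0.85 for carriers, 0.31 for partners, -0.09 for enzymes, -0.09 for coregulators and -0.29 for responsive genes.

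The most abundant gene of 5 roles of the list was above all 9 pathway genes in mean RPKM. *Adh5*, an alcohol dehydrogenase that is not specific to retinol, had a mean of 144 RPKM over the 15 libraries. *Fabp5*, which encodes a fatty acid binding protein that can also carry retinoic acid, had a mean of 91.8 RPKM. It was at 74.4 ± 14.6 RPKM in WT, 101 ± 31.1 RPKM in Tie2-Ezh2-KO and 100 ± 5.08 RPKM in Vav-Ezh2-KO (SD, n = 5 each). Its difference from WT was 0.40 (SE 0.18, limma adjusted p = 0.439) in Tie2-Ezh2-KO and 0.45 (SE 0.11, limma adjusted p = 0.519) in Vav-Ezh2-KO, so neither passed. Among the partners *Rxrb* led with a mean of 9.25 RPKM, and among the coregulators *Med1*, a subunit of Mediator, with 14.1 RPKM. *Meis1*, a homeobox gene active in blood progenitors, led the responsive genes with 30.9 RPKM. Its difference from WT in Tie2-Ezh2-KO was -0.31 (SE 0.15, limma adjusted p = 0.526).

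*Tgm2* encodes a transglutaminase that retinoic acid induces in many cells. It was at 1.57, 0.479, 1.41, 4.002 and 2.40 RPKM in Tie2-Ezh2-KO, at 0.210, 1.29, 0.0836, 0.294 and 0 RPKM in Vav-Ezh2-KO and at 0.839, 0, 0.419, 0.0757 and 2.26 RPKM in WT. The 3 sets overlapped. *Tgm2* was higher in Tie2-Ezh2-KO than in Vav-Ezh2-KO by 2.06 (SE 0.54, limma adjusted p = 0.049, range over the alternatives 0.0112 to 0.131), in 5 of 5 libraries against the Vav-Ezh2-KO median. The call held in 5 of 19 alternatives, and of those that left out a library only without Tie2-Ezh2-KO replicate 9 or Vav-Ezh2-KO replicate 9. Against WT its difference was 1.58 (limma adjusted p = 0.306) in Tie2-Ezh2-KO and -0.47 (limma adjusted p = 0.875) in Vav-Ezh2-KO, which became 0.03 without Vav-Ezh2-WT replicate 6.

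*Rxrg*, an RXR gene, is named here after its values were seen, because it was the list gene that limma-voom called in Tie2-Ezh2-KO against WT. Its mean was 0.529 ± 0.407 RPKM in Tie2-Ezh2-KO, 0.0644 ± 0.105 RPKM in WT and 0.118 ± 0.0711 RPKM in Vav-Ezh2-KO (SD, n = 5 each). The difference from WT was 1.39 (SE 0.37, limma adjusted p = 0.0637, range over the alternatives 0.0232 to 0.397), which did not pass. It passed in 4 of 21 alternatives: all 15 libraries in a joint fit, limma-voom, and without Tie2-Ezh2-WT replicate 10 (adjusted p = 0.0437) or Tie2-Ezh2-KO replicate 9 (adjusted p = 0.029), in the same range.

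**Figure D2:**
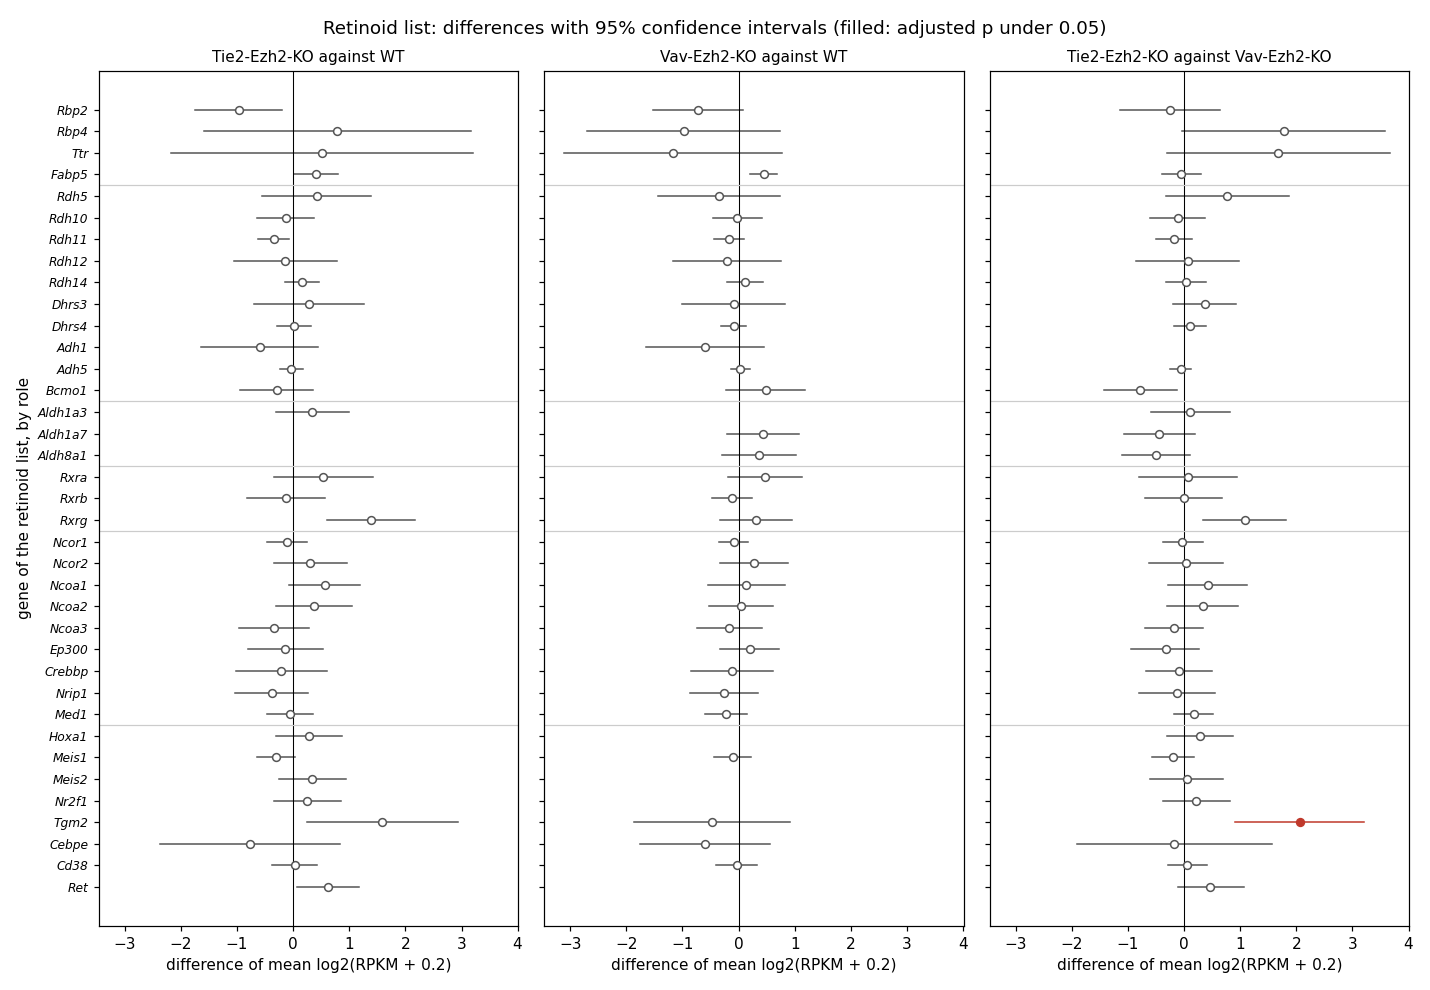
Difference of mean log2(RPKM + 0.2) (horizontal axis) for the genes of the retinoid list tested in each of the 3 comparisons of 5 with 5 libraries, ordered by role with grey lines between roles; points are differences, bars are 95% confidence intervals, and filled points have a limma adjusted p under 0.05. The filled point is *Tgm2* at 2.06 in Tie2-Ezh2-KO against Vav-Ezh2-KO, and in the comparisons with WT no point is filled.

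The genes with the pattern most like *Crabp2* were found by Pearson correlation of log2(RPKM + 0.2) over the 15 libraries among 12965 genes, as a description. The 8 highest were *Chpf* (r = 0.934), *A230050P20Rik* (0.934), *Slc6a20a* (0.921), *Stk39* (0.921), *Mmp14* (0.916), *Trim47* (0.916), *Faah* (0.913) and *Tcfl5* (0.910). They share with *Crabp2* a split between Tie2-Ezh2-KO and the 10 other libraries, and a correlation over these libraries holds that split. *Chpf*, which encodes a factor of chondroitin synthesis, was at 4.62 ± 1.26 RPKM in Tie2-Ezh2-KO, 1.32 ± 0.338 RPKM in WT and 1.54 ± 0.610 RPKM in Vav-Ezh2-KO (SD, n = 5 each). *Mmp14*, which encodes a membrane-bound matrix metalloproteinase, was at 0.994 ± 0.234, 0.0625 ± 0.0574 and 0.126 ± 0.128 RPKM in the same order. *Slc6a20a*, which encodes an amino acid transporter, was at 0.820 ± 0.368 RPKM in Tie2-Ezh2-KO and at 0 in the 10 other libraries. *Faah*, which encodes a hydrolase of fatty acid amides, was at 4.36 ± 0.976, 0.926 ± 0.0563 and 1.17 ± 0.569 RPKM in the same order as *Chpf*. Among the pathway genes *Crabp1* came nearest, with r = 0.895 and rank 15. *Aldh1a2* followed with r = 0.810 and *Rarb* with 0.729, while *Rarg* (0.535) and *Rara* (0.423) were farther off.

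The promoters of the genes were read because 4 of them were high in the same libraries. RefSeq windows of GRCm38.p6, from 250 bases before to 50 bases after an annotated start, were held for 8 of the 9 genes, all but *Crabp2*. Each window was searched on both strands for direct repeats of the half-site AGGTCA that RAR and RXR are known to bind, where GGGTCA was taken as well, and likewise AGTTCA besides the variant GGTTCA, in any pairing. With a gap of 5 bases (DR5) such a repeat was in 32 of 32851 windows (0.0974%), with a gap of 1 base (DR1) in 73 (0.222%) and with a gap of 2 bases (DR2) in 88 (0.268%). A DR5 was in the windows of *Rarb* and *Cyp26a1*, both known as genes that retinoic acid induces, and no window of the 8 genes held DR1 or DR2. A match describes letters and is neither a bound site nor a cause, and *Rarb* and *Cyp26a1* differed in level, with *Cyp26a1* at 0 in every Tie2-Ezh2-KO library. Both windows are shown 5′ to 3′ on the strand of the gene with the DR5 in capitals. That of *Rarb* is on the minus strand, chr14:16575427-16575726, within the annotated gene, with the DR5 at -53 to -37 from the start on the same strand. That of *Cyp26a1* is on the plus strand, chr19:37697558-37697857, partly upstream of the gene and partly in it. Its DR5 lies at -32 to -16 from the annotated start of that window, on the opposite strand, in the part within the annotated gene.
Rarb: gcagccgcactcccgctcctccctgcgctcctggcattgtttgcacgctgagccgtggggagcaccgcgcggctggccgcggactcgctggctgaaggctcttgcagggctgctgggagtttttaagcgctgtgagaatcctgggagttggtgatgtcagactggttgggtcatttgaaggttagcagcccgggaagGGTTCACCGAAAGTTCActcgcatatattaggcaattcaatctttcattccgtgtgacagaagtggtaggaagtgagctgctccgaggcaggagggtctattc
Cyp26a1: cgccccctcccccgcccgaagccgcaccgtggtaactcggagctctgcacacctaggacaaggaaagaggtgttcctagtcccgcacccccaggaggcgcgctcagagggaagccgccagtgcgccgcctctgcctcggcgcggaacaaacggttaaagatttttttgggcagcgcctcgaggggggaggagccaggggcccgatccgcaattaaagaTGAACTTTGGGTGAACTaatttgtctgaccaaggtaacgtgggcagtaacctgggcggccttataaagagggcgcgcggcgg

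*Crabp1* and *Aldh1a2* had windows with no DR5, which says only that these letters are not in them. They are shown because *Ezh2*, the gene deleted, encodes a subunit of a complex known to occupy promoters rich in CG pairs. Binding there was not analysed here. The *Crabp1* window was 65% G and C with 17 CG pairs, and that of *Aldh1a2* was 78% with 50 pairs. Over the 32851 windows the medians were 52.7% and 7 pairs. *Rarb* had 57.7% and 17 pairs, and *Cyp26a1* had 62.3% and 26 pairs. Of the other pathway genes, the 4 windows of *Rara* had 58.3% to 68.3% and 5 to 21 pairs, the 2 of *Rarg* had 70% with 12 pairs and 51.7% with 10, and *Cyp26b1* had 62.3% and 9. The 2 windows of *Aldh1a1* were below the medians, at 43.3% with 3 pairs and 47% with 1. Capitals mark the CG pairs, 5′ to 3′ on the plus strand, in *Crabp1* at chr9:54764498-54764797 and in *Aldh1a2* at chr9:71215539-71215838, each from upstream of the gene into its start (RefSeq, GRCm38.p6).
Crabp1: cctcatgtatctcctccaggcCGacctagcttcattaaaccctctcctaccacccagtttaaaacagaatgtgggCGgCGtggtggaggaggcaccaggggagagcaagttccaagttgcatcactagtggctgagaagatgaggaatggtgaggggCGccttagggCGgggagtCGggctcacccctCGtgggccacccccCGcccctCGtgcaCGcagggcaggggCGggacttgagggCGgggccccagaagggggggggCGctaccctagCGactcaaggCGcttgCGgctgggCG
Aldh1a2: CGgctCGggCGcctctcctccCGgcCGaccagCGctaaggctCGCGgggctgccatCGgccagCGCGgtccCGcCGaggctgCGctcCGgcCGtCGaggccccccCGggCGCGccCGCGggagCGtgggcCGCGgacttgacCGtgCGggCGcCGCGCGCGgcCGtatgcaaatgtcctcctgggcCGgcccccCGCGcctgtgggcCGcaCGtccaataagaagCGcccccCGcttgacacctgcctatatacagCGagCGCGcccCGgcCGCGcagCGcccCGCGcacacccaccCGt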

How the data were processed

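RNA-seq values of 15 libraries were used, 5 of each knockout and 5 WT (3 of the Tie2-Ezh2 and 2 of the Vav-Ezh2 cross), with group and replicate from the labels and 0 other sample columns left unused. Per the labels and methods, cDNA was amplified with 16 PCR cycles and sequenced as single-end reads of 75 bases without strand. The authors aligned reads to GRCm38/mm10 with TopHat2 2.0.13, used featureCounts with RefSeq models for counts, and deposited linear RPKM. The number of cells per library is 500 in the labels and differs in the methods, so no value per cell is given. Reads on genes per library were recovered from the spacing of low values, and 96 or more single-exon genes stood behind each total. All 16877 genes above 0 then came out as whole reads (tolerance 1e-04), and 577 genes were at 0.

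Genes that exceeded 0.2 RPKM in any library of the groups compared were tested on log2(RPKM + 0.2) by limma (version 3.58.1, R 4.3.3) with lmFit and a trended eBayes, adjusted after Benjamini and Hochberg over all genes tested, with a threshold of 0.05. All p are two-sided. No batch term was fitted, since the labels name no batch. Sums of reads have exact Poisson intervals and ratios of sums exact binomial ones, at 95%, from scipy 1.17.1 in Python 3.11.15. The code was tested on simulated data. The pathway genes and the lists were chosen with earlier results of these data known. Named genes were the 9 pathway genes, list genes past the threshold in any comparison, the gene with the highest mean RPKM in each role, *Ezh2*, and the 8 genes most correlated with *Crabp2* among those above 0.2 RPKM in at least 3 libraries. Marker lists covered EMPs, endothelium, primitive erythroid cells, visceral endoderm, mesenchyme with mesothelium, and macrophages, and *Sox17* of the endothelial list was not analysed here. A further retinoid gene, not among the 53 of the list, was left out after the values had been seen. The counts, medians and plot of the list are without it and hold for the other genes only. *Rbp4* and *Ttr* stand in both the visceral endoderm and the carrier list.

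The alternatives were pseudocounts of 1 and 0.05, no filter, a filter of 3 libraries, quantile normalization, a common median, eBayes without trend, corresponding WT libraries only, all 15 libraries in a joint fit, and leaving out each library. Added after seeing the data were limma-voom on the recovered reads and leaving out both libraries high in visceral endoderm markers.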

Additional observations from a re-analysis of the deposited data

Results flagged for a closer look

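In 10 of 67 groups of 5 libraries, over 26 genes, the highest or lowest library lay far from the rest (gap over range above 0.71). About 1 in 20 groups of normally distributed values pass that limit, a rate that does not hold for values near 0. With 4 libraries at 0 the ratio is 1 whatever the other value is, so nothing is read from the number of groups flagged. Most of the flagged groups had a single library with a few reads of a gene that was at 0 in the others. *Crabp1* was at 0.329 RPKM in Vav-Ezh2-KO replicate 28 and at 0 in the other 4 of its group. *Crabp2* was at 0.302 RPKM in Vav-Ezh2-KO replicate 9 and at 0 in the other 4, and at 0.373 RPKM in Vav-Ezh2-WT replicate 4 against at most 0.0557 RPKM in the other WT libraries. *Aldh1a2* was at 0.0768 RPKM in Vav-Ezh2-KO replicate 26 and at 0 in the other 4. *Aldh1a3* was at 0.0790 RPKM in Vav-Ezh2-WT replicate 4 and at 0 in the other WT libraries. *Tcfl5* was at 0.0738 RPKM in Vav-Ezh2-KO replicate 9 and at 0.0454 RPKM in Vav-Ezh2-WT replicate 6, and at 0 in the other libraries of both groups.

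The rest were libraries of genes with reads throughout the group. *Rarb* was at 1.57 RPKM in Tie2-Ezh2-KO replicate 13 against 0.657 to 0.747 RPKM in the other 4. *Slc6a20a* was at 0.207 RPKM in Tie2-Ezh2-KO replicate 9 against 0.820 to 1.13 RPKM. *Trim47* was at 3.07 RPKM in Vav-Ezh2-KO replicate 9 against 1.66 to 1.98 RPKM.

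The effects of the knockouts, which share their WT libraries, differed for *Tgm2* by 2.06 in the direct limma comparison of Tie2-Ezh2-KO with Vav-Ezh2-KO. The limma adjusted p was 0.049, in a range of 0.0112 to 0.131, and the call held in only 5 of 19 alternatives. The cause was not tested.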

How the results depend on the processing

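No pathway gene passed the threshold in any alternative of Vav-Ezh2-KO against WT. The size on the log scale depends on the pseudocount, since most values are near 0: that of *Crabp2* in Tie2-Ezh2-KO against WT ran from 1.46 with a pseudocount of 1 to 4.41 with 0.05 and 5.11 with limma-voom. No scaling moved the median of all genes by more than 0.05. The number of genes past the threshold in Tie2-Ezh2-KO against WT was 386, 187 with the corresponding WT only (fewer libraries) and 217 without both libraries high in visceral endoderm markers, and 262 to 438 without each library in turn. In Vav-Ezh2-KO against WT it was 1, 0 with limma-voom and 2 with the corresponding WT only, and 1 to 2 without each library. In Tie2-Ezh2-KO against Vav-Ezh2-KO it was 495, and 320 to 969 without each library. The retinoid list gave 0 in Tie2-Ezh2-KO against WT, 1 with all 15 libraries in a joint fit and 1 with limma-voom, and 0 to 1 without each library. In Tie2-Ezh2-KO against Vav-Ezh2-KO it gave 1, and 0 with a pseudocount of 1 or of 0.05, without a filter, with eBayes without trend, with the joint fit and with limma-voom, and 0 to 2 without each library.

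Signs changed for differences near 0 in Vav-Ezh2-KO against WT. Without each library in turn, that of *Crabp2* ran from -0.37 to 0.18, of *Rara* from -0.06 to 0.37, of *Tgm2* from -0.91 to 0.03 and of *Ezh2* from -0.10 to 0.02. *Rarg* was at -0.07 with the corresponding WT only, and *Ezh2* at 0.00 with quantile normalization and 0.03 with a common median. Of 677 values of single genes under the alternatives, 589 kept their direction and side of the threshold or moved within their spread, 48 no longer passed, 4 newly passed, 26 without a test moved beyond their spread and 10 changed sign. No paired analysis was possible because the groups compared share at most 1 replicate number. Limma-voom, leaving out both libraries, and folds without each library were chosen after seeing the data, and the cause was not tested where a value moved.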
